A study of Rattus norvegicus with 16 samples.

Results

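Brain endothelial genes are described here by 10 members, Cldn5, Cdh5, Clec14a, Pecam1, Flt1, Kdr, Tek, Slco1c1, Slc2a1 and Vwf. They were chosen by gene symbol in the platform's annotation, with the brightest probe kept for a gene. All 10 were found among the 15037 genes with 1 symbol on the array, and each had 1 probe, so no choice between probes was needed. Levels were measured on 16 Affymetrix arrays, 1 for each of 4 rat brain regions under each of 4 treatments. In the habenula these were its lateral part (LHb) and its medial part (MHb). In the hindbrain they were the nucleus of the solitary tract (Sol) and the vestibular nucleus in its medial division (MVe). Tissue was cut by laser from Nissl-stained frozen sections of 30 µm.

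The animals were male Wistar rats of 8 to 10 weeks, and every treatment lasted 60 minutes. The sevoflurane group inhaled that anesthetic at 2.4%, and its control group received O2. The propofol group received an intravenous bolus of 10 mg/kg and then an infusion of 36 mg/kg/hr. Its control group received Intralipos, a 10% lipid emulsion, with the same bolus and rate. Oxygen at 40%, flowing at 6 L/min, was given to all of them. The labels do not say how many rats gave tissue to an array, nor which arrays share a rat. With 1 array for each region and treatment, the regions served as replicates of a treatment and the treatments as replicates of a region. The p-values then measure the spread between these arrays and may be too small where arrays share a rat.

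Endothelial cells line the vessels of the brain, and in its capillaries they form the blood-brain barrier. Tight junctions seal the gaps between them, so that nutrients and hormones cross by way of carriers in the cell membrane. Receptors for vascular endothelial growth factor (VEGF) and for angiopoietins govern the growth and upkeep of these vessels. Grey matter regions differ in how densely they are supplied with capillaries. Among the members, Cldn5 and Cdh5 encode junction proteins (claudin-5 and VE-cadherin). Pecam1 and Clec14a encode surface adhesion proteins, Flt1 and Kdr VEGF receptors, and Tek the angiopoietin receptor Tie2. Slco1c1 encodes a thyroid hormone carrier, Slc2a1 the glucose carrier Glut1, and Vwf the clotting protein von Willebrand factor. Several are also transcribed elsewhere, such as Slc2a1 and Slco1c1 in astrocytes and Pecam1 in blood cells.

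The upstream sequence is shown for a junction gene, a surface receptor gene and a carrier gene. Whether these sequences bear on the members' levels was not tested. RefSeq (build GRCr8) gave a window for 5 members, Cldn5, Clec14a, Flt1, Kdr and Slc2a1. Each sequence below is the 250 bases before the gene's start on the gene's own strand, 5′ to 3′. Capitals mark GGGCGG or its reverse complement CCGCCC, the GC box that Sp1-family factors bind. In GRCr8, Tek lies at chr5:114722815-114849535, Flt1 at chr12:12333050-12504750 and Slco1c1 at chr4:176197736-176244401, and these are named without an upstream sequence here. The Flt1 window (chr12:12333180-12333429) lies inside that gene interval. The Kdr window (chr14:32571813-32572062) runs past the start of the Kdr interval at 32572031. Counts below for these 2 windows therefore take in bases past those starts. The printed windows are chr11:95718599-95718848 on the minus strand for Cldn5, chr6:81619557-81619806 on the minus strand for Clec14a and chr5:138002272-138002521 on the plus strand for Slc2a1.
Cldn5: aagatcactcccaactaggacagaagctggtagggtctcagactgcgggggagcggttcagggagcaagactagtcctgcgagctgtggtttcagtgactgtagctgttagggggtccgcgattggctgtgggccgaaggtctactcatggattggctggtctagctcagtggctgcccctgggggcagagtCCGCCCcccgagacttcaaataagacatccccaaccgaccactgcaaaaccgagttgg
Clec14a: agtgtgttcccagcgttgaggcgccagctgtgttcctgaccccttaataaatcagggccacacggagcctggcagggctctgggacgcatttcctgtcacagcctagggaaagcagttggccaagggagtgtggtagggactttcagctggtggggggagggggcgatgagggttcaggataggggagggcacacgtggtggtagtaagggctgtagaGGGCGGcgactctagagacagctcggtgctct
Slc2a1: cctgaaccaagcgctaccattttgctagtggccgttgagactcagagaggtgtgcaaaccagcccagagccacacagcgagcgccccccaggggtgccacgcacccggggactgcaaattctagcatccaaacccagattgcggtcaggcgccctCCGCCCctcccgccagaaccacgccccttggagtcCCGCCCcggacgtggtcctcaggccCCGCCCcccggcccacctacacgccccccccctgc
GGGCGG, read on both strands, occurred in all 5 windows, with 1 copy in Cldn5, Clec14a and Kdr and 3 in Flt1 and Slc2a1. It occurred in 30.5% of the 33469 windows of the same length in the table. The 5 windows were rich in G and C, from 58.4% in Cldn5 to 73.2% in Flt1, against a median of 51.2% over all windows. CAGGAA, an ETS-type motif, was found in 1 of the 5 (Clec14a, with 2 copies) and in 24.7% of all windows. CCGGAA was found in 1 of the 5 (Kdr, with 1 copy) and in 12.6% of all windows. These are matches of letters and not sites of binding, and no copy of the GC box overlapped a copy of the other motifs in the printed windows.

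The deposited values are log2 signals, so a difference of 1 stands for 2 times the signal. The sevoflurane and O2 arrays form an array set with means over all probes from 7.20 to 7.21, and the propofol and Intralipos arrays form another with means from 6.97 to 6.99. The sets look separately normalized, so the tests compare regions within treatments and each anesthetic with its own control. Ranges of levels and statements on overlap over all arrays of a region take in both sets, and the offset between the sets is part of them. A member's mean over the 16 arrays ran from 4.45 for Clec14a to 12.28 for Cldn5. Ranked among all genes, the members' mean signals ran from percentile 25.2 (Clec14a) and 36.4 (Vwf) to 90.9 (Cldn5), and no order of abundance between genes follows from this. To describe how alike the members were, each was set against the mean of the other 9 over the 16 arrays, centred within array sets. Pearson's r ran from 0.76 for Clec14a and 0.81 for Vwf to 0.97 for Tek. The arrays share regions, so this describes a common regional pattern and is given without a p. It cannot check the endothelial label, since genes outside the members, such as Rph3a (0.974 with the members' mean), reached values as high.

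Regions were the main source of difference. The members were lowest in MHb and highest in MVe, with LHb and Sol between them. The mean level of the 10 members was 7.44 to 7.91 in the MHb arrays and 8.97 to 9.63 in the MVe arrays. In LHb it was 8.39 to 8.88 and in Sol 8.12 to 8.66. Of the 10 members, 8 had the lowest of the 4 regions in MHb under every treatment, which was true of 10.4% of all genes. For 6 of 10, MVe was highest under every treatment, against 8.05% of all genes. No member was highest throughout in LHb, MHb or Sol, against 2.09%, 11.5% and 9.22% of all genes. None was lowest throughout in LHb, Sol or MVe, against 1.77%, 5.38% and 8.09%. Over the 40 combinations of a member and a treatment, MHb was lowest in 38 and MVe highest in 35, and LHb was highest in the other 5. In tissue fragments, fewer endothelial cells and less RNA per cell cannot be told apart.

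**Figure D1:**
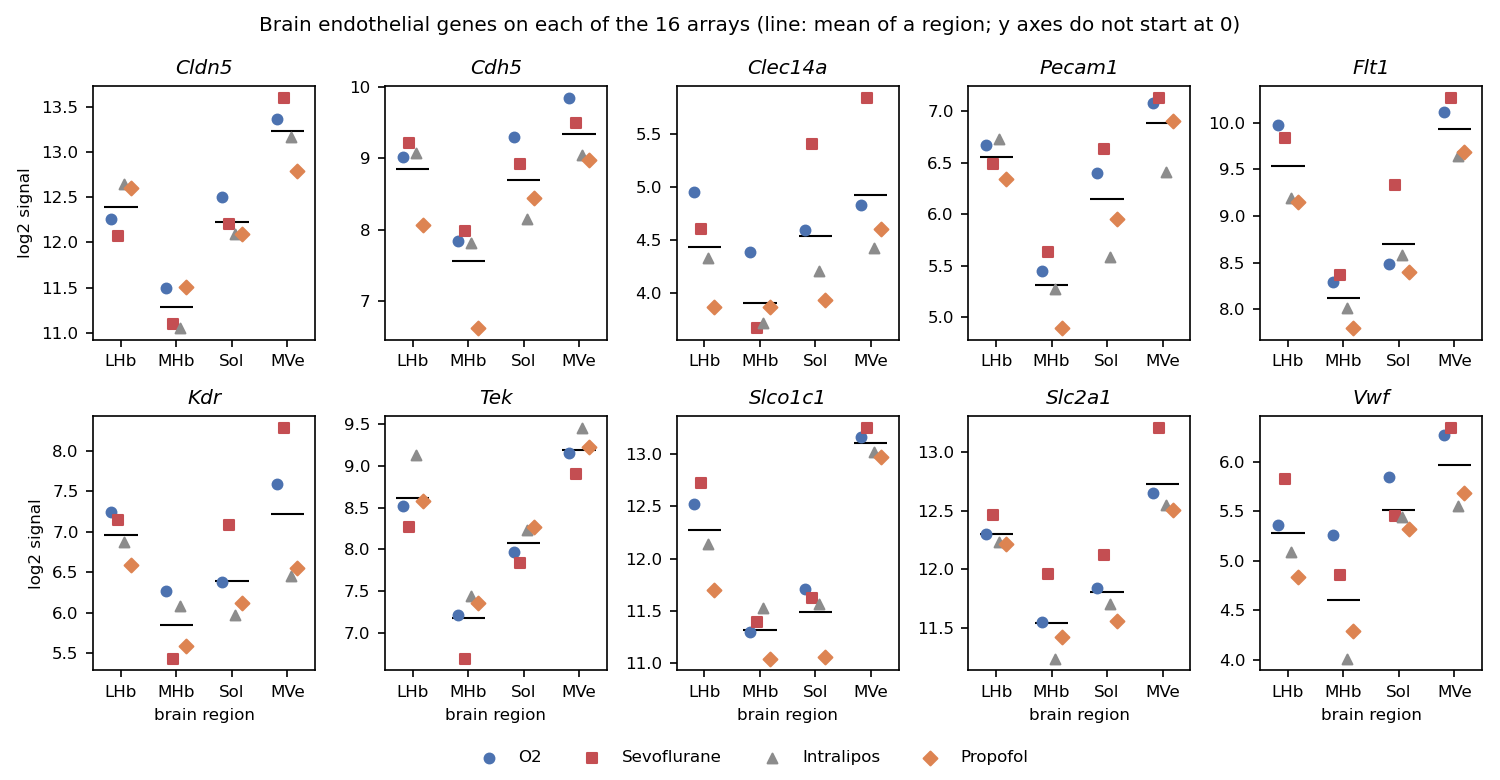
Log2 signal (y axis, not starting at 0) of each endothelial gene in the 4 regions (x axis), with 1 point per array, coloured by treatment, and a line at the region's mean. MHb is lowest by the mean for all 10 genes and MVe highest, while the order of LHb and Sol differs between genes.

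Tek, the Tie2 receptor gene, had the highest correlation with the other members. With treatments in the order O2, sevoflurane, Intralipos and propofol, its log2 signal was 9.15, 8.90, 9.45 and 9.22 in MVe and 8.51, 8.26, 9.13 and 8.58 in LHb. It was 7.97, 7.83, 8.23 and 8.27 in Sol and 7.22, 6.69, 7.45 and 7.36 in MHb. Under each treatment the order was MVe, LHb, Sol and MHb, and the 4 values of MHb did not overlap those of any other region. Flt1, a VEGF receptor gene, stood at 10.12, 10.27, 9.64 and 9.69 in MVe and at 9.98, 9.83, 9.19 and 9.15 in LHb. Flt1 stood at 8.48, 9.33, 8.58 and 8.40 in Sol and at 8.30, 8.37, 8.01 and 7.80 in MHb. The Sol sevoflurane array was high for Flt1, and the other Sol arrays lay closer to MHb than to LHb.

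The carriers had MVe values above those of every other region. Slco1c1 had log2 signals of 13.16, 13.25, 13.02 and 12.98 in MVe and of 12.52, 12.73, 12.14 and 11.70 in LHb, in the same order of treatments. It had 11.71, 11.63, 11.57 and 11.06 in Sol and 11.30, 11.39, 11.52 and 11.04 in MHb. Sol and MHb overlapped for Slco1c1, and MVe stood apart from all other arrays. Slc2a1 was at 12.65, 13.21, 12.55 and 12.51 in MVe and at 12.30, 12.47, 12.23 and 12.22 in LHb. It was at 11.83, 12.12, 11.71 and 11.55 in Sol and at 11.55, 11.96, 11.24 and 11.42 in MHb. Its 4 MVe values were all above its 4 LHb values, and those in turn above its 4 Sol values.

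The junction genes also had their lowest values in MHb. Cldn5 was at 13.37, 13.60, 13.16 and 12.79 in MVe and at 12.26, 12.07, 12.65 and 12.60 in LHb. In Sol it was at 12.50, 12.20, 12.09 and 12.09 and in MHb at 11.49, 11.10, 11.05 and 11.50, so LHb and Sol overlapped. Cdh5 was at 9.85, 9.48, 9.04 and 8.97 in MVe, 9.02, 9.22, 9.07 and 8.06 in LHb, 9.29, 8.92, 8.15 and 8.44 in Sol, and 7.84, 7.98, 7.82 and 6.62 in MHb. The low Cdh5 values of LHb and MHb were both in the propofol arrays. For the remaining members the MHb values were 3.67 to 4.38 for Clec14a, 4.89 to 5.64 for Pecam1, 5.43 to 6.27 for Kdr and 4.01 to 5.26 for Vwf. Their MVe values were 4.43 to 5.85, 6.41 to 7.13, 6.45 to 8.28 and 5.55 to 6.34 in that order of genes, without overlap with MHb. LHb and Sol overlapped for all 4 of these genes. Their LHb and Sol values were 3.86 to 4.95 and 3.93 to 5.41 for Clec14a, and 6.34 to 6.73 and 5.59 to 6.63 for Pecam1. They were 6.59 to 7.24 and 5.97 to 7.09 for Kdr, and 4.84 to 5.82 and 5.32 to 5.84 for Vwf. How many of all genes lack overlap between regions was not computed, here or for Tek and the carriers. The lack of overlap therefore does not set the members apart from other genes.

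By region means the order was MVe, LHb, Sol, MHb for 8 members and MVe, Sol, LHb, MHb for Clec14a and Vwf. Neighbours in an order were called distinct where they differed the same way under all 4 treatments and the mean difference exceeded its SD over treatments. The regions ranked 1 and 2 were distinct for 7 members but not for Cdh5, Pecam1 and Kdr. Those ranked 2 and 3 were distinct for Flt1, Kdr, Tek, Slco1c1 and Slc2a1 but not for Cldn5, Cdh5, Clec14a, Pecam1 and Vwf. Those ranked 3 and 4 were distinct for 7 members but not for Clec14a, Kdr and Slco1c1. The regions were ranked by the same values, and the share of all genes meeting this rule was not computed. These counts therefore describe the members and do not set them apart from other genes.

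The habenula comparison asked how its lateral and medial parts differ. All 10 members were higher in LHb than in MHb, by a median of 1.11 on the log2 scale, while the median of all genes was -0.04. The angiopoietin receptor gene Tek differed by 1.44 ± 0.14 (moderated SE, n = 4 treatments), a 2.71-fold difference (limma adjusted p = 1.74e-07). Flt1 differed by 1.42 ± 0.16 (2.67-fold), Cdh5 by 1.28 ± 0.21, Pecam1 by 1.24 ± 0.18 and Kdr by 1.12 ± 0.27. Cldn5 differed by 1.11 ± 0.19, the carriers Slco1c1 by 0.96 ± 0.15 and Slc2a1 by 0.76 ± 0.13, and Vwf by 0.67 ± 0.18. These 9 passed limma's test with Benjamini-Hochberg adjustment over all genes, at adjusted p-values up to 0.00682 (Vwf), and each was higher in LHb under 4 of 4 treatments. Clec14a did not pass (0.53 ± 0.24, 95% interval 0.02 to 1.04, adjusted p = 0.120) and was higher under 3 of 4. How many of all genes had one sign under 4 of 4 treatments was not computed, here or for Sol against MVe. Over all genes 14.1% were called higher in LHb and 14.4% lower, 28.5% in all. That was 2119 higher and 2170 lower, and with arrays centred on their medians, which moved the median of all genes to -0.14, it was 1819 and 2920.

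Calls in the other vascular lists went in both directions, with more genes higher in LHb than lower in each list. The shares of all genes called were 14.1% higher and 14.4% lower. In the list of blood-brain barrier carriers 8 of 15 measured genes were called higher in LHb and 1 lower. They included the monocarboxylate carrier gene Slc16a1 (2.27 ± 0.15) and the drug efflux pump gene Abcb1a (1.34 ± 0.15), while the transferrin receptor gene Tfrc was lower (-1.61 ± 0.17). Of 23 endothelial identity genes 11 were called higher and 0 lower, including the sphingosine phosphate receptor gene S1pr1 (1.92 ± 0.17) and Podxl (1.47 ± 0.23). Of 17 mural cell genes, which mark pericytes and vascular smooth muscle, 9 were higher and 0 lower, with Rgs5 at 1.49 ± 0.16 and Vtn at 1.64 ± 0.16. Of 14 Wnt and barrier signalling genes 5 were higher, such as the ligand genes Ndp (1.67 ± 0.18) and Wnt7a (1.54 ± 0.22), and 3 lower, such as Axin2 (-1.71 ± 0.19). Of 9 arterial genes 4 were higher and 0 lower, and of 9 junction genes 3 were higher, led by Tjp1 (1.10 ± 0.14), and 2 lower. Of 13 VEGF and angiopoietin genes 5 were higher, such as Angpt2 (1.77 ± 0.18) and Epas1 (1.76 ± 0.22), and 3 lower, such as the co-receptor gene Nrp2 (-2.49 ± 0.23) and the ligand gene Pgf (-2.38 ± 0.23), with a median of 0.03. Of 14 activation and haemostasis genes 3 were higher, with the tissue factor gene F3 at 1.40 ± 0.17, and 1 was lower, Edn1 (-0.76 ± 0.27). The venous list had 1 of 5 higher, Nr2f2 (3.19 ± 0.26), and the fenestrated vessel list 1 of 5, Plpp3 (2.90 ± 0.19). For the venous, fenestrated vessel and activation lists the counts called higher were near the share of all genes. Neurons and glia also express many genes of these lists.

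Markers of other cells moved with this comparison, in which 14.1% of all genes were called higher in LHb and 14.4% lower. Astrocyte genes were called higher in LHb for 9 of 10 and lower for 1, and the mean level of the list was 14.03 to 14.39 in LHb and 11.21 to 11.68 in MHb. Oligodendrocyte genes were higher for 11 of 12, with mean levels of 13.37 to 13.83 in LHb and 11.71 to 12.22 in MHb. Microglia genes were higher for 4 of 9 and blood cell genes for 3 of 9, the latter being the haemoglobin genes Hbb-b1, Hbb and Hba-a1. Choroid plexus genes were lower in LHb for 5 of 12 and higher for 1, and neuron genes were higher for 6 and lower for 4 of 13. The part of these cell types in the members' difference was not tested.

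**Figure D2:**
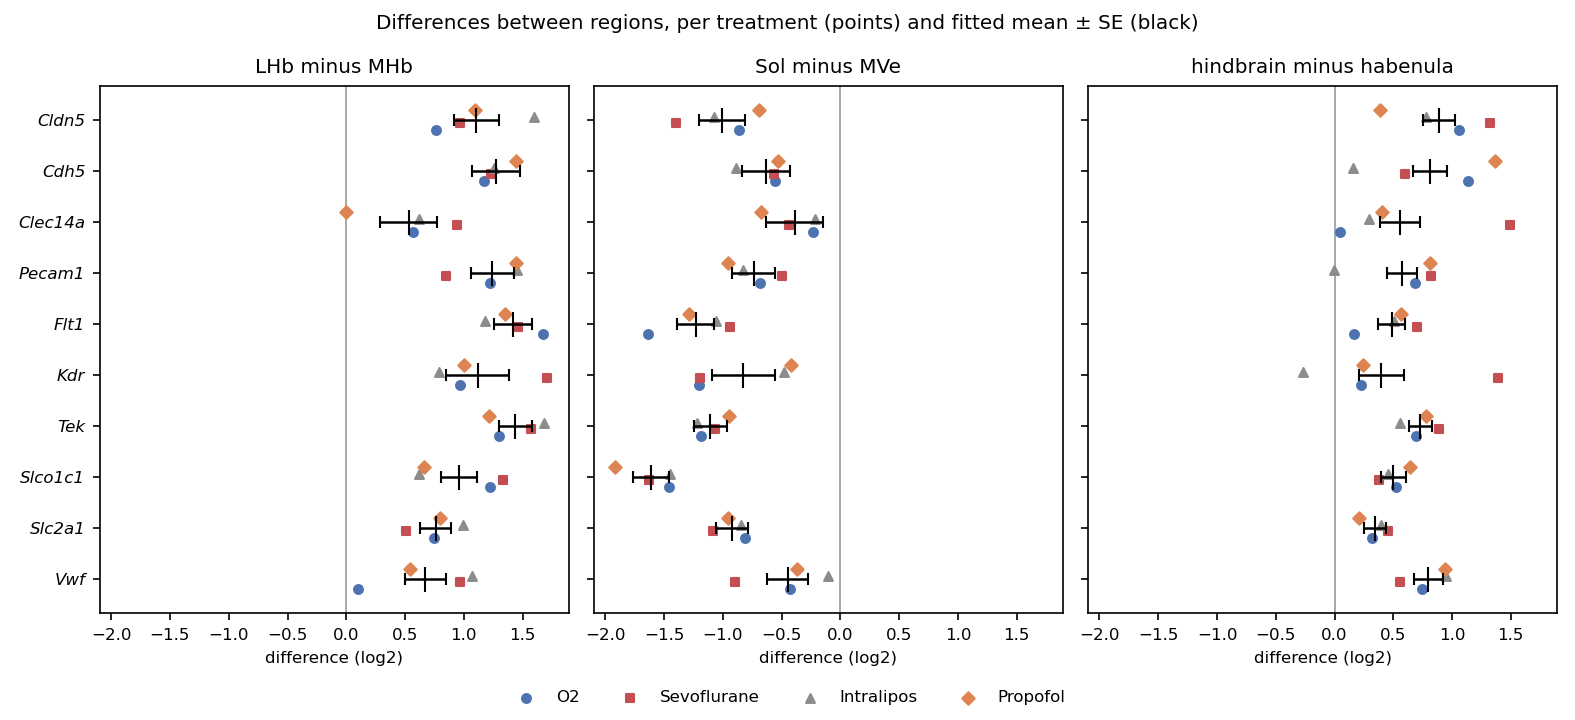
Difference in log2 signal (x axis) of each endothelial gene (y axis) for LHb minus MHb, Sol minus MVe, and hindbrain minus habenula, with 1 point per treatment and the fitted mean ± SE in black. The fitted values are above 0 for all 10 genes for LHb minus MHb and for hindbrain minus habenula, and below 0 for all 10 for Sol minus MVe.

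The LHb against MHb differences were of the same sign in each array set alone for all 10 members. The median was 1.12 in the sevoflurane and O2 arrays (7 called) and 1.08 in the propofol and Intralipos arrays (8 called). Of all 15037 genes 2721 and 2714 were called in these sets, in either direction. Vwf lost its call without the Intralipos arrays (0.54, limma adjusted p = 0.0637), and Clec14a stood at 0.23 without the MHb sevoflurane array.

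The hindbrain comparison asked how the solitary and the vestibular nucleus differ. All 10 members were lower in Sol, with a median of -0.87 against -0.02 over all genes, and each was lower under 4 of 4 treatments. The thyroid hormone carrier gene Slco1c1 had the largest difference of the members, -1.61 ± 0.15, which makes Sol 3.06-fold lower (limma adjusted p = 1.67e-07). Flt1 was at -1.23 ± 0.16 (2.35-fold), Tek at -1.11 ± 0.14, Cldn5 at -1.01 ± 0.19 and Slc2a1 at -0.92 ± 0.13. Kdr was at -0.83 ± 0.27 (adjusted p = 0.0232), Pecam1 at -0.74 ± 0.18 (0.00367) and Cdh5 at -0.64 ± 0.21 (0.0216). These 8 passed, while Vwf (-0.45 ± 0.18, 95% interval -0.82 to -0.08, adjusted p = 0.0567) and Clec14a (-0.39 ± 0.24, -0.90 to 0.12, adjusted p = 0.240) did not. Of all genes 16% were called lower in Sol and 19.3% higher, 35.2% in all. That was 2901 higher and 2399 lower, and with median centring, which moved the median of all genes to -0.17, it was 2223 and 3509. All 10 members stayed below 0 under that scaling and above 0 in LHb minus MHb.

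The other vascular lists were mixed here, beside shares of all genes of 16% called lower in Sol and 19.3% higher. Of the 15 barrier carriers 9 were called lower in Sol and 3 higher. Mfsd2a, which encodes the lipid carrier that holds down transcytosis in brain endothelium, was at -2.30 ± 0.16, and the amino acid carrier subunit gene Slc3a2 at 2.40 ± 0.15. Of 23 endothelial identity genes 6 were lower, such as the TGF-beta co-receptor gene Eng (-1.56 ± 0.21) and the transcription factor gene Erg (-1.14 ± 0.24), and 3 were higher, led by Calcrl (1.87 ± 0.20). Of 17 mural cell genes 6 were lower, with the pericyte genes Rgs5 (-1.59 ± 0.16) and Abcc9 (-1.15 ± 0.24). The other 4 called were higher, with the smooth muscle genes Myh11 (1.94 ± 0.19) and Tagln (1.91 ± 0.26). Among 13 VEGF and angiopoietin genes 4 were lower, with the ligand genes Angpt1 (-1.68 ± 0.19) and Vegfa (-1.36 ± 0.17), and 3 higher, with Nrp2 at 4.18 ± 0.23. Of 9 junction genes 2 were lower, Ocln (-0.91 ± 0.13) and Lsr (-0.69 ± 0.16), and 2 higher. Plvap, the diaphragm protein gene of fenestrated vessels, was lower in Sol (-0.92 ± 0.17), in a list with 1 lower and 1 higher of 5. For the junction and fenestrated vessel lists the counts called were near the shares of all genes.

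Oligodendrocyte genes were called lower in Sol for 11 of 12, with mean levels of 10.61 to 10.83 in Sol and 12.90 to 13.45 in MVe. Microglia genes ran the opposite way to the members, higher in Sol for 9 of 9, with mean levels of 7.63 to 8.89 against 6.36 to 7.09. Astrocyte genes were higher for 6 and lower for 2 of 10, neuron genes lower for 6 and higher for 2 of 13, and choroid plexus genes lower for 9 of 12. Blood cell genes were lower for 2 and higher for 1 of 9, beside 16% lower and 19.3% higher over all genes. The part of these cells in the result was not tested.

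**Figure D3:**
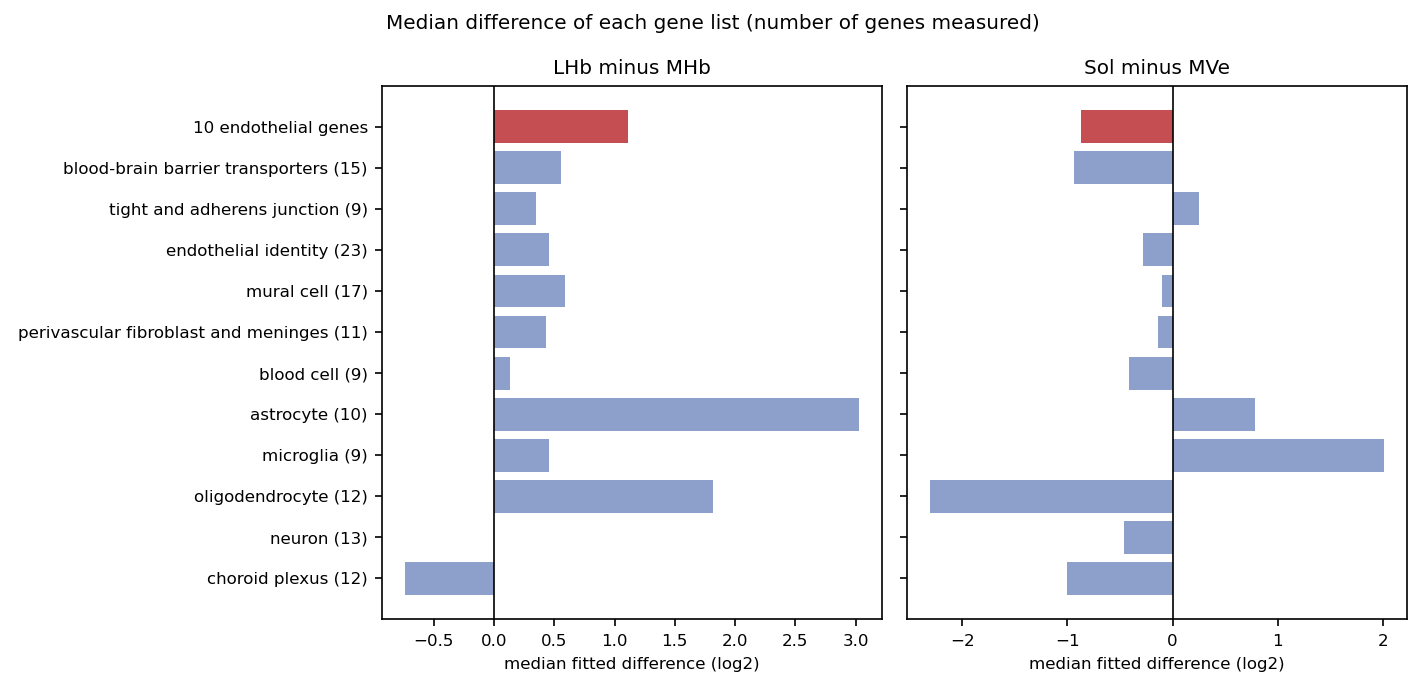
Median fitted log2 difference (x axis) of the 10 endothelial genes and of 11 other gene lists (y axis, with the number of genes measured) for LHb minus MHb and Sol minus MVe. The endothelial median is 1.11 in the first panel and -0.87 in the second, while microglia genes are at 0.45 and 2.01.

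In each array set alone the Sol against MVe differences kept their sign for all 10 members. The median was -1.04 in the sevoflurane and O2 arrays and -0.89 in the propofol and Intralipos arrays, with 6 called in each. Of all 15037 genes 3858 and 3233 were called in these sets, in either direction. Kdr lost its call (limma) without the Sol O2 (adjusted p = 0.0875), MVe sevoflurane (0.132), MVe O2 (0.0634) or Sol Intralipos (0.0693) array, or all O2 arrays (0.139), and fell to -0.52 without MVe sevoflurane. Cdh5 lost it without the Sol sevoflurane (0.0594), MVe O2 (0.0655), Sol Intralipos (0.115) or MVe propofol (0.0824) array, or all O2 (0.0581) or sevoflurane (0.0666) arrays. Vwf passed without the MHb O2 (0.0466) or Sol Intralipos (0.0310) array or all Intralipos arrays (0.0424), and with arrays centred on their medians (-0.60, adjusted p = 0.0143) or quantile normalized (-0.51, 0.0358). Clec14a stood at -0.17 without the MVe sevoflurane array and at -0.59 without the Sol sevoflurane array, and Vwf at -0.30 without the latter.

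A further comparison set both hindbrain regions against both habenular regions. Averaged over regions, all 10 members were higher in the hindbrain, by a median of 0.57 against 0.01 for all genes. By region means MVe was highest and MHb lowest for each member, while Sol lay below LHb for 8 of them. The average therefore does not describe Sol on its own against LHb. Cldn5 (0.89 ± 0.14), Cdh5 (0.81 ± 0.15), Vwf (0.80 ± 0.12) and Tek (0.73 ± 0.10) differed most, and Slc2a1 least (0.34 ± 0.10). In all 9 passed limma's test, at adjusted p-values up to 0.0146 (Clec14a), and Kdr did not (0.40 ± 0.19, adjusted p = 0.116). Of all genes 19.8% were called higher in the hindbrain and 18.3% lower, 38.1% in all. Astrocyte genes moved along, higher for 9 of 10, and oligodendrocyte genes the opposite way, lower for 9 of 12. Their part in the members' difference was not tested.

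The Kdr difference between hindbrain and habenula was 0.81 in the sevoflurane and O2 arrays (limma adjusted p = 0.0296) and -0.01 in the propofol and Intralipos arrays (0.969). It stood at 0.22 without the MHb sevoflurane array, 0.25 without the MVe sevoflurane array, 0.07 without all sevoflurane arrays and 0.62 without all Intralipos arrays (0.0289). It also passed without the MHb Intralipos (0.0435) or MVe Intralipos (0.0421) array. Clec14a (0.25, limma adjusted p = 0.192) and Slc2a1 (0.31, 0.0529) lost their calls without the sevoflurane arrays. Over the members the median was 0.76 with 7 called in the first set and 0.55 with 6 called in the second. Of all 15037 genes 4621 and 3552 were called in these sets, in either direction.

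The next question was whether sevoflurane changed the endothelial genes relative to O2. None passed limma's test (0 of 10, with adjusted p-values from 0.975 to 0.993), and 0% of all genes did. An unadjusted p under 0.05 was found for 2 members and for 751 of all genes. The glucose carrier gene Slc2a1 was higher with sevoflurane in 4 of 4 regions, by 0.56 in MVe, 0.41 in MHb, 0.29 in Sol and 0.17 in LHb. The fitted difference was 0.36 ± 0.13, with a 95% interval of 0.07 to 0.64 that is not adjusted over genes (adjusted p = 0.975). Tek was lower in 4 of 4 regions, with differences from -0.52 in MHb to -0.14 in Sol, and its fitted difference was -0.29 ± 0.14 (limma adjusted p = 0.982). These are the 2 members with one sign in every region. The share of all genes with one sign in 4 of 4 regions was not computed for any of the anesthetic contrasts.

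Among the 10 members 6 were above 0 with a median of 0.07, against a median of 0.01 over all genes. Flt1 was at 0.23 ± 0.16, Clec14a at 0.19 ± 0.24, Kdr at 0.12 ± 0.27, Slco1c1 at 0.08 ± 0.15 and Pecam1 at 0.07 ± 0.18. Vwf was at -0.07 ± 0.18, Cdh5 at -0.10 ± 0.21 and Cldn5 at -0.16 ± 0.19. The widest 95% interval of these was that of Kdr, -0.45 to 0.69. For Slco1c1 the interval was -0.25 to 0.40 and for Cldn5 -0.57 to 0.25. The Flt1 value moved with Sol, where the pair differed by 0.85, and it was 0.03 without that region.

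Within regions, the members did not move together after sevoflurane. Clec14a was below O2 in LHb (-0.34) and MHb (-0.72) and above it in Sol (0.82) and MVe (1.02). Kdr had the same signs, at -0.09, -0.83, 0.71 and 0.70 in that order. The difference between hindbrain and habenula in the sevoflurane effect was 1.45 ± 0.33 for Clec14a and 1.17 ± 0.38 for Kdr, and neither passed limma's test (adjusted p = 0.735 and 0.866). None of the 10 did (0 of 10), and 0% of all genes did. An unadjusted p under 0.05 was found for 2 members and for 803 of all genes. Clec14a is dim on the array, and the sevoflurane arrays of Sol (5.41) and MVe (5.85) gave its highest values among the sevoflurane and O2 arrays. In single pairs of arrays, without a replicate check, the LHb pair gave the members a median of -0.12, the MHb pair -0.16, the Sol pair 0.08 and the MVe pair 0.12.

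Among other vascular genes 0 passed after sevoflurane in each of the 9 lists of endothelial and vessel-signalling genes, with 0 to 3 of a list at an unadjusted p under 0.05. None of the 17 mural cell genes did, with 0 at an unadjusted p under 0.05. Apold1, an early response gene of endothelium, was at 1.95 ± 0.45 and above 0 in 4 of 4 regions (limma adjusted p = 0.655), and Lcn2 was at 0.85 ± 0.19 (0.655). In the list of endothelial activation and haemostasis genes 10 of 14 were above 0, with a median of 0.17. Nos3, the endothelial nitric oxide synthase gene, was at -0.51 ± 0.25 (0.982) and below 0 in 4 of 4 regions. Beside these values, blood cell genes had a median of 0.11 with 6 of 9 above 0, and oligodendrocyte genes -0.18 with 3 of 12.

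**Figure D4:**
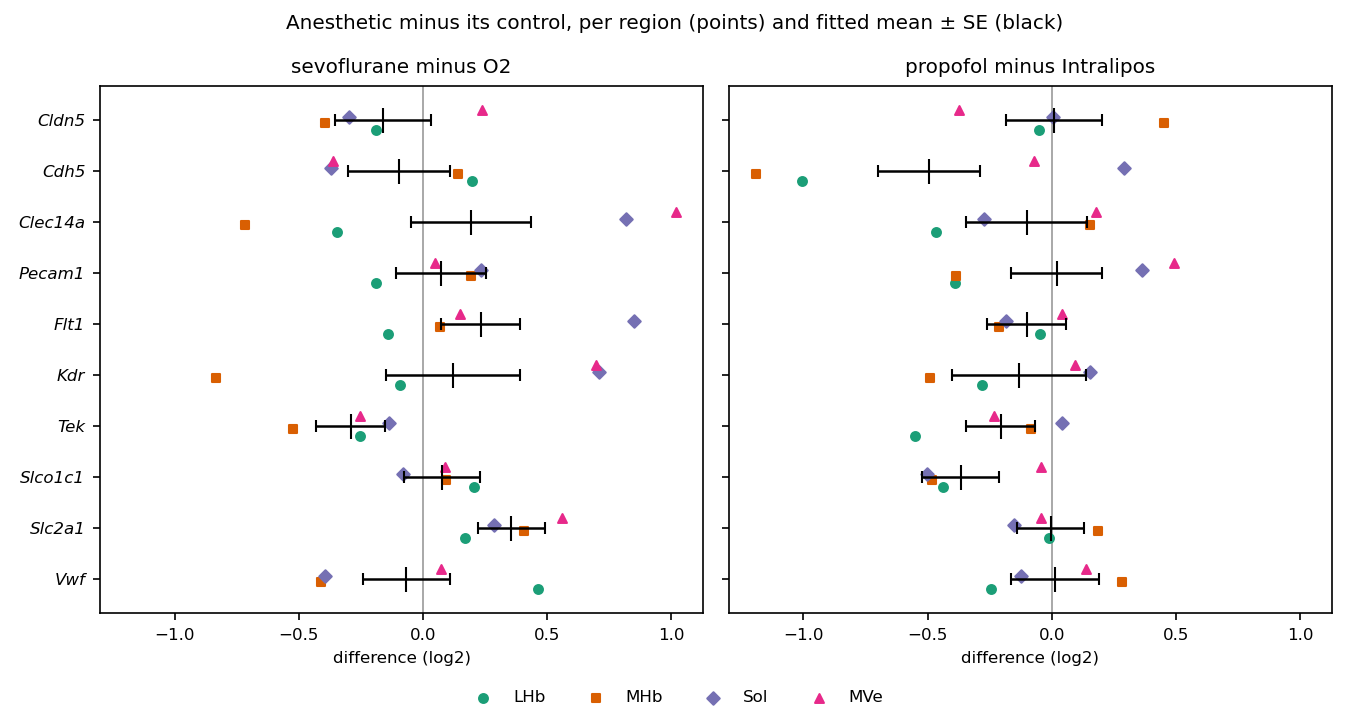
Difference in log2 signal (x axis) between an anesthetic and its control for each endothelial gene (y axis), with 1 point per region and the fitted mean ± SE in black. Most genes have points on both sides of 0, while Slc2a1 after sevoflurane is above 0, and Tek after sevoflurane and Slco1c1 after propofol are below 0, in 4 of 4 regions.

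The same question was asked of propofol relative to its lipid vehicle. None of the 10 members passed limma's test (0 of 10, adjusted p from 0.677 to 0.996), and 0.02% of all genes did. With an unadjusted p under 0.05 there were 2 members, Slco1c1 and Cdh5, and 1040 of all genes. The thyroid hormone carrier gene Slco1c1 was lower with propofol in 4 of 4 regions, at -0.50 in Sol, -0.48 in MHb, -0.44 in LHb and -0.04 in MVe. Its fitted difference was -0.37 ± 0.15 with a 95% interval of -0.69 to -0.04 (adjusted p = 0.685). Cdh5, the VE-cadherin gene, was at -0.49 ± 0.21 (limma adjusted p = 0.677). Its value was -0.26 without MHb, -0.32 without LHb and -0.76 without Sol.

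Cdh5 was at 8.06 with propofol and 9.07 with Intralipos in LHb, and at 6.62 and 7.82 in MHb. In Sol it was at 8.44 and 8.15 and in MVe at 8.97 and 9.04, so the hindbrain pairs differed by 0.29 and -0.07. The propofol effect on Cdh5 differed between hindbrain and habenula by 1.21 ± 0.27 and that on Pecam1 by 0.81 ± 0.30, and neither passed limma's test (adjusted p = 0.849 and 0.918). None of the 10 members did (0 of 10), and 0% of all genes did. An unadjusted p under 0.05 was found for 2 members and for 816 of all genes. Pecam1 was below Intralipos in LHb (-0.39) and MHb (-0.38) and above it in Sol (0.36) and MVe (0.49).

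Across the remaining members the fitted propofol differences were small. Tek was at -0.21 ± 0.14, Kdr at -0.13 ± 0.27, Clec14a at -0.10 ± 0.24 and Flt1 at -0.10 ± 0.16. Slc2a1 was at -0.0047 ± 0.13, Cldn5 at 0.01 ± 0.19, Vwf at 0.01 ± 0.18 and Pecam1 at 0.02 ± 0.18. The 95% interval for Slc2a1 was -0.29 to 0.28. In all 7 of 10 were below 0 with a median of -0.10, against 0.01 over all genes, and 1 or 2 of 10 were above 0 with arrays centred on their medians or quantile normalized. In the LHb pair of arrays 10 of 10 members were below Intralipos, with a median of -0.33 against 0.01 for all genes there, and astrocyte genes were at -0.27 with 0 of 10 above 0. In MHb, Sol and MVe the members' medians were -0.15, -0.06 and 0.00. In the other pairs of both anesthetics 4 to 8 of 10 members were above 0, so the LHb propofol pair was the most extreme. How many of all genes were below 0 in that pair was not computed. All of these are differences between single arrays, and the part of the astrocyte genes in them was not tested.

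Of the other vascular genes, 0 passed after propofol in any of the 9 lists or among the mural cell genes, with 0 to 2 of a list at an unadjusted p under 0.05. The arterial list had 7 of 9 above 0 and a median of 0.17, with Hey1 at 0.43 ± 0.20 (limma adjusted p = 0.727) and Alpl at 0.42 ± 0.17 (0.671). Vtn, a pericyte gene, was at 0.51 ± 0.16 and above 0 in 4 of 4 regions (0.640), and Angptl4 was at -0.39 ± 0.16 (0.671). Choroid plexus genes had a median of 0.44 with 11 of 12 above 0, and astrocyte genes -0.14 with 0 of 10.

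A direct contrast asked whether the anesthetics, each against its own control, differed in these genes. No member passed (0 of 10 by limma), and 0.0133% of all genes did. An unadjusted p under 0.05 was found for 0 members and for 754 of all genes. Slco1c1 was at 0.44 ± 0.22 (95% interval -0.02 to 0.90, adjusted p = 0.991) and Slc2a1 at 0.36 ± 0.19 (-0.04 to 0.76, 0.991), both with the sevoflurane effect higher in 4 of 4 regions. Cdh5 was at 0.40 ± 0.29, Flt1 at 0.33 ± 0.22, Clec14a at 0.30 ± 0.34 and Kdr at 0.25 ± 0.38. Pecam1 was at 0.05 ± 0.26, Vwf at -0.08 ± 0.25, Tek at -0.09 ± 0.20 and Cldn5 at -0.17 ± 0.28. The array set cannot be told apart from the pair of drugs in this contrast, and the controls differ.

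The genes whose pattern over the 16 arrays was most like that of the members were found by Pearson's r with the members' mean, centred within array sets. Outside the members the 6 highest were Rph3a, which encodes a synaptic vesicle protein (0.974), Thrsp (0.970), Camta1, a transcription activator gene (0.969), Ppargc1a, a coactivator gene of mitochondrial biogenesis (0.967), Zfp385a (0.966) and Gls2, a glutaminase gene (0.965). None of the 6 stands in the lists of vascular or cell type genes. The median r was 0.69 for the 15 barrier carriers, 0.64 for the 9 junction genes, 0.56 for the 23 endothelial identity genes and 0.48 for the 17 mural cell genes. It was 0.68 for astrocyte genes, 0.53 for oligodendrocyte and for neuron genes and -0.10 for microglia genes, against -0.0023 for all genes. The 16 arrays share 4 regions, and these values are given without a p.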

How the data were processed

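The table used holds the authors' deposited log2 signals, 1 for each probe set and array. The submitters' processing notes name Affymetrix Expression Console 1.3.0, and the method of summarization, like the build, was not given in the sources used here. That the scale is log2 was read from the values (2.47 to 19.93). Biotin-labelled cDNA came from 100 ng of total RNA, per the labels' protocols. The 94 control probe sets were left out, 15049 probe sets had 1 symbol, 0 several and 9691 none here. The brightest probe was kept for each of 15037 genes.

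The program limma 3.58.1 (R 4.3.3) fitted a linear model of treatment plus region over the 16 arrays (9 residual degrees of freedom; 6 with treatment by brain part). P-values are two-sided and adjusted by the Benjamini-Hochberg method over all genes (threshold 0.05). Errors written with ± are moderated standard errors and pool the spread over all arrays of the fit. The number of arrays limits the precision. The fits were tested on simulated data with independent noise on each array. Such data cannot show what arrays that share a rat do to the p-values. Alternatives were other scalings, filters, probe choices and variance models, array sets fitted alone and arrays left out. The members and lists were chosen with earlier results of these data known. All members are described. From other lists up to 4 genes past the threshold, or 2 where none passed, were named by size of difference. Python 3.11.15 and matplotlib 3.10.9 drew the figures.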

Additional observations from a re-analysis of the deposited data

Results flagged for a closer look

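In sets of 4 values, chance sets an extreme value apart about once in 20, and 60 sets were examined, the level of each member in each region and its difference in each region after each anesthetic. The Cdh5 level of the MHb propofol array (6.62) lay far below the other MHb arrays, which ran from 7.82 to 7.98. These arrays come from both array sets, whose means over all probes differ (6.97 to 6.99 and 7.20 to 7.21). The MHb Intralipos array of its own set was at 7.82. The Slco1c1 difference between propofol and Intralipos in MVe (-0.0424) lay apart from those of the other regions, which ran from -0.50 to -0.44.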

How the results depend on the processing

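The counts of members called stayed within 1.5 times under every alternative run: 0 of 10 for each anesthetic contrast, 7 to 10 for LHb against MHb, 6 to 9 for Sol against MVe and 6 to 10 for hindbrain against habenula, with leave-one-out ranges of 8 to 9, 6 to 9 and 7 to 10. No member changed sign in the first 2 region contrasts. Centring arrays on their medians moved the median of all genes from -0.04 to -0.14 in LHb minus MHb and from -0.02 to -0.17 in Sol minus MVe. The calls over all genes then split into 1819 higher and 2920 lower (2119 and 2170 as deposited) and into 2223 and 3509 (2901 and 2399). Kdr turned to -0.0136 for hindbrain minus habenula in the propofol and Intralipos arrays. After propofol, Cldn5 turned to -0.0058 with median centring and -0.0307 with quantile normalization, and Vwf to -0.0012 with median centring.

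Leaving out dim genes left 8 of 10 members, without Clec14a and Vwf, whose values stayed under the median of all gene values on every array. With arrays or regions left out, values near 0 changed sign. After sevoflurane Clec14a ran from -0.0816 to 0.50, Pecam1 from -0.037 to 0.21, Kdr from -0.18 to 0.47, Slco1c1 from -0.0352 to 0.13 and Vwf from -0.24 to 0.0855. After propofol Cldn5 ran from -0.14 to 0.19, Clec14a from -0.26 to 0.0201, Pecam1 from -0.14 to 0.20, Kdr from -0.36 to 0.0902, Slc2a1 from -0.0684 to 0.0442 and Vwf from -0.11 to 0.12. For the difference of the anesthetics Cldn5 ran from -0.43 to 0.056, Pecam1 from -0.12 to 0.22, Kdr from -0.0517 to 0.60, Tek from -0.21 to 0.0319 and Vwf from -0.34 to 0.12. For the sevoflurane effect by brain part Cldn5 ran from -0.0075 to 0.53, Pecam1 from -0.12 to 0.41, Slco1c1 from -0.40 to 0.11, Slc2a1 from -0.0341 to 0.30 and Vwf from -0.62 to 0.25. For propofol by brain part Clec14a ran from -0.25 to 0.47, Flt1 from -0.10 to 0.22, Tek from -0.0107 to 0.46, Slco1c1 from -0.0447 to 0.42 and Vwf from -0.28 to 0.26. Values that kept their sign but moved by over 1.5 times included, after sevoflurane, Flt1 (0.0257 to 0.36), Cldn5 (-0.35 to -0.0351) and Cdh5 (-0.20 to -0.0077). After propofol they included Cdh5 (-0.76 to -0.26), Tek (-0.29 to -0.0907) and Flt1 (-0.16 to -0.0534), and Slco1c1 ran from -0.47 to -0.27. The cause was not tested. The number of arrays, 1 for each region and treatment, limits every one of these values.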
